A study of Mus musculus with 2 samples.

Results

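Mucosal pentraxins Mptx1 (ENSMUSG00000026531) and Mptx2 (ENSMUSG00000079180) are the 2 genes described here, of 32285 genes in the deposited matrices. Both were chosen by name with their measured values known, namely the summed level and the share of positive cells in each library, so the difference between the libraries in these values is a description and was not tested. Pentraxins are secreted pattern recognition proteins that assemble into rings and bind their ligands with the help of calcium; C-reactive protein and serum amyloid P component are the best known members of the family. The mucosal pentraxins are made in the gut epithelium. The first to be described came from rat colon, where diet changes its expression, and in the mouse small intestine Mptx2 is used as a marker of Paneth cells, the antimicrobial secretory cells of the crypt base.

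The cells came from intestinal tumours of mice that had received the colon carcinogen azoxymethane together with dextran sulfate sodium, an agent that injures the colonic lining (AOM-DSS). The cKO library is of mice with floxed Mtch2 alleles and Cre recombinase driven by the Villin promoter, which is active in intestinal epithelial cells. The WT library is of mice with the same floxed alleles and no Cre. Tumours of several mice were pooled within each genotype before dissociation with trypsin, so there was 1 library per genotype, no replicate and no test between genotypes. Mtch2 encodes a protein of the outer mitochondrial membrane. Its summed level in epithelial cells was 24.6 unique molecular identifiers (UMIs, counted RNA molecules) per 1000000 UMIs (CPM) in cKO, against 93.6 CPM in WT.

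Mptx2 lies on the minus strand of chromosome 1 at chr1:173274382-173277777 and Mptx1 on the plus strand at chr1:174330518-174332873 (GRCm38), 1.05 Mb apart, each with 2 annotated exons. The acute-phase pentraxin genes Crp and Apcs are annotated on the same chromosome, on the other side of Mptx2. The annotated transcripts of 799 bases (Mptx1) and 794 bases (Mptx2) were 92.4% identical over 794 aligned bases. Their longest shared run was 112 bases, and 41 stretches of 91 bases occurred whole in both. In the last 300 bases, where counting from the 3′ end would place most reads, identity was 89.5% and the longest shared run was 30 bases. Reads from the shared stretches could be assigned to either gene or to neither, so the split between the genes carries that uncertainty. The stretches just before the annotated starts are shown because the highest levels of the genes lay in different gates although these sequences are nearly alike. Capitals mark the bases that differ or are unmatched between the aligned promoters, from RefSeq promoter sequences of GRCm38.p6. The 120 bases of Mptx1 are chr1:174330398-174330517, plus strand, and those of Mptx2 are chr1:173277778-173277897, minus strand.
Mptx1: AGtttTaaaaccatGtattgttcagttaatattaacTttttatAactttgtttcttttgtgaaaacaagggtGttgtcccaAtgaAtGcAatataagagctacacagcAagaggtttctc
Mptx2: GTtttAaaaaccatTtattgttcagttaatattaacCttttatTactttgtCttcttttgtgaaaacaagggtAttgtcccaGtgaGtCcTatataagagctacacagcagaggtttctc
Of 119 aligned bases, 108 (90.8%) were identical. Both stretches held TATAA on the coding strand, 29 bases before the start in Mptx1 and 28 bases before it in Mptx2. With both strands searched, TATAA occurs in 11.8% of 32851 promoters over the 120 bases before the RefSeq start. Mptx1 held 2 further matches, which overlap each other. The motif GTTAAT, recognised by HNF1, a family of gut and liver transcription factors, lay once on each strand in both genes, at 96 and 90 bases before the start, and is in 3.0% of the promoters. The core ATCAAT bound by ONECUT factors was in neither stretch and is in 2.84% of the promoters.

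The libraries held 6723 (cKO) and 9445 (WT) barcodes with 97364087 and 116066712 UMIs. After filters, 3890 cKO and 4852 WT cells remained, with medians of 8608.5 and 8665 UMIs. Cells were called epithelial from summed epithelial markers or from squamous markers. This gave 2107 cKO and 3560 WT cells, with medians of 25754 and 11688 UMIs. The cKO epithelial cells thus held more UMIs per cell. Subtypes were gated on marker lists that hold neither member, and cells passing no subtype gate were kept as epithelial cells without a subtype (1301 cKO, 2285 WT). Barcodes under 1000 UMIs, called shallow, served as the measure of free RNA (2101 cKO, 3600 WT). The libraries shared 22 barcodes, 7 of them among kept cells. All intervals are 95% intervals of counting error in 1 library and do not cover variation between mice.

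Both genes were higher in the cKO epithelium as a sum. Mptx2 reached 152 CPM in cKO (10853 UMIs), against 4.28 CPM in WT (402 UMIs). Its log2 ratio was 5.15 (5.0 to 5.29), or 35.4-fold, and it ranked 7 of 9412 genes with at least 10 CPM in either library. Mptx1 reached 44.0 CPM in cKO (3150 UMIs), against 13.4 CPM in WT (1257 UMIs), a log2 ratio of 1.72 (1.62 to 1.81) and rank 31. At 2-fold or more, 53 genes were higher in cKO, 0.563% of those measured, and 30 were lower (0.319%). Both members are among the 53, but they were chosen on this contrast, and nothing is read from that count.

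The sums came from very few cells. A single cKO cell carried 2377 of the 3150 Mptx1 UMIs, or 75.5%, and the next cell carried 380. In WT, the highest cell carried 412 UMIs of Mptx1, or 32.8%, and 3 cells together held at least 50% of the sum. Without the single highest cKO cell, the Mptx1 level in cKO was 10.8 CPM, against 13.4 CPM in WT, and the log2 ratio turned to -0.31. Without the highest cell of each library it was 0.27 (0.12 to 0.41), at 10.8 CPM in cKO and 9.0 CPM in WT. Leaving out that 1 cKO cell alone thus turned the direction of the summed Mptx1 difference. Leaving out the highest cell of each library kept the direction, with a much smaller difference.

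Mptx2 was spread over more cells in cKO. The highest cKO cells carried 2686, 1822, 1330, 937 and 453 UMIs, and the highest WT cells 65, 62, 47, 26 and 23. The first cell held 24.7% of the cKO sum and 16.2% of the WT sum. Without the 10 highest cells of each library, 37.7 CPM was left in cKO and 1.19 CPM in WT, a log2 ratio of 4.99. At least 3 UMIs of Mptx2 were counted in 90 cKO cells, 4.27% (3.45% to 5.22%), against 20 WT cells, 0.562% (0.343% to 0.866%). At the same limit, Mptx1 was counted in 23 cKO cells, 1.09% (0.693% to 1.63%), against 22 WT cells, 0.618% (0.388% to 0.934%). Cells with at least 3 UMIs of a member are called high below. High cells had a median of 22.5 Mptx2 UMIs in cKO and 6.5 in WT, and a median of 7 Mptx1 UMIs in cKO and 13 in WT. Epithelial cells held more UMIs each in cKO, so the share was also taken in cells of at least 10000 UMIs, where Mptx2-high cells made up 6.82% in cKO and 1.07% in WT, and Mptx1-high cells 1.69% in cKO and 1.02% in WT.

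**Figure D1:**
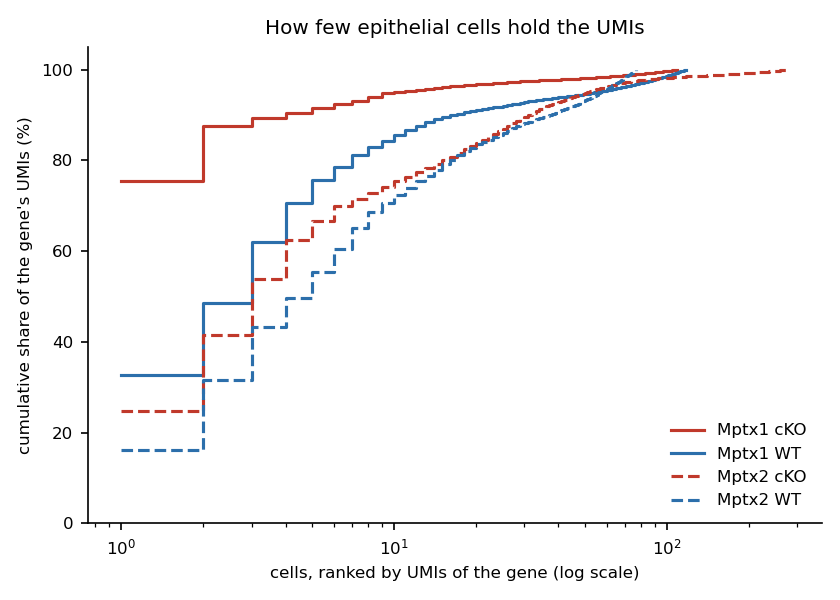
Cumulative share of each gene's UMIs (vertical axis, percent) over epithelial cells ranked by their UMIs (horizontal axis, log scale), for cKO and WT. The Mptx1 line of cKO starts at 75.5% with 1 cell, and the Mptx2 lines start at 24.7% in cKO and 16.2% in WT.

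Free RNA was seen in both libraries. Shallow barcodes carried 5.09 Mptx2 UMIs per 100 barcodes in cKO and 0.75 in WT, and 4.66 UMIs of Mptx1 in cKO and 2.25 in WT. In CPM, their Mptx1 level was 75.9 in cKO and 31.8 in WT, above all epithelial cells (44.0 and 13.4). Their Mptx2 level was 82.8 CPM in cKO, below all epithelial cells (152), and 10.6 CPM in WT, above them (4.28). Among the cKO epithelial gates, only Paneth-like cells and cells without a subtype lay above that cKO Mptx2 level. Immune cells, which should lack both genes, carried 5.95 Mptx2 UMIs per 100 cells in cKO and 0.539 in WT, and 3.05 UMIs of Mptx1 in cKO and 1.89 in WT. Any Mptx2 UMI was found in 5.50% of 1310 cKO immune cells (median 6320 UMIs), against 13.2% of cKO epithelial cells (median 25754 UMIs). In WT the shares were 0.404% of 742 immune cells (median 7290.5 UMIs), against 2.16% of epithelial cells (median 11688 UMIs). When every cell was thinned to 3000 UMIs, Mptx2 was expected in 4.92% of cKO epithelial cells and 2.22% of cKO immune cells, and in 0.903% of WT epithelial and 0.264% of WT immune cells. For Mptx1 the thinned shares were 1.46% of epithelial and 1.31% of immune cells in cKO, and 1.04% of epithelial and 0.877% of immune cells in WT. The thinned Mptx1 shares were thus close between epithelial and immune cells, and a single Mptx1 UMI in a cell is not read as expression. These shares include the high cells, so they do not settle what part is background. The limit of 3 UMIs was reached by 1 of 1310 cKO immune cells for each gene (0.0763%) and by 0 of 742 WT immune cells, which allows a share of up to 0.404%. Among all barcodes, 102 cKO and 20 WT barcodes were Mptx2-high. Of these, 11 cKO barcodes were removed by the filters, 6 of them as doublets, and 1 fell outside the epithelium. Among all barcodes, 31 in cKO and 23 in WT were Mptx1-high, and the filters removed 6 of them in cKO and 1 in WT.

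Mptx1 was highest in goblet-like cells, the mucus-secreting lineage. In that gate it reached 1591 CPM in cKO (2871 UMIs, 59 cells), against 273 CPM in WT (1108 UMIs, 129 cells). This gate held 91.1% of the epithelial Mptx1 UMIs in cKO and 88.1% in WT. The highest goblet-like cells carried 2377, 380, 61 and 26 UMIs in cKO, against 412, 199, 168 and 108 in WT. The gate's log2 ratio of 2.54 fell to 0.79 (0.62 to 0.96) without the highest cell of each library, at 301 CPM in cKO and 174 CPM in WT, and to 0.14 without the highest cKO cell alone. High cells made up 13.6% (6.04% to 25%) of cKO and 10.9% (6.06% to 17.5%) of WT goblet-like cells, intervals that overlap. The WT cell with 108 UMIs held only 1434 UMIs in all, which puts Mptx1 at 75314 CPM in it.

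Outside the goblet-like gate, Mptx1 was low. Paneth-like cells had 64.4 CPM in cKO and 16.8 CPM in WT, but 34 of the 40 cKO UMIs came from 1 cell, and 11.1 and 9.01 CPM were left without the highest cell of each library. Cells without a subtype had 4.07 CPM in cKO and 1.24 CPM in WT, with 7 and 3 high cells in cKO and WT. Crypt-base-like cells had 5.54 CPM in cKO, 29 of 37 UMIs in 1 cell, against 2.27 CPM in WT. Stem-like, mitotic, colonocyte-like, surface-like and squamous-like cells lay between 0.711 and 3.55 CPM in cKO and between 0.605 and 2.29 CPM in WT. Immune cells had 3.42 CPM in cKO and 1.77 CPM in WT, so the summed levels of these gates lay near or below those of immune cells. Immune cells held fewer UMIs each than epithelial cells, so the sums do not settle what part is background. Single cells in these gates were still high, with 11 UMIs in a mitotic cKO cell, 17 in a mitotic WT cell and 7 in a surface-like cKO cell. No Mptx1 UMI was found in the 7 cKO and 14 WT tuft-like cells or the 5 cKO and 1 WT enteroendocrine-like cells.

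**Figure D2:**
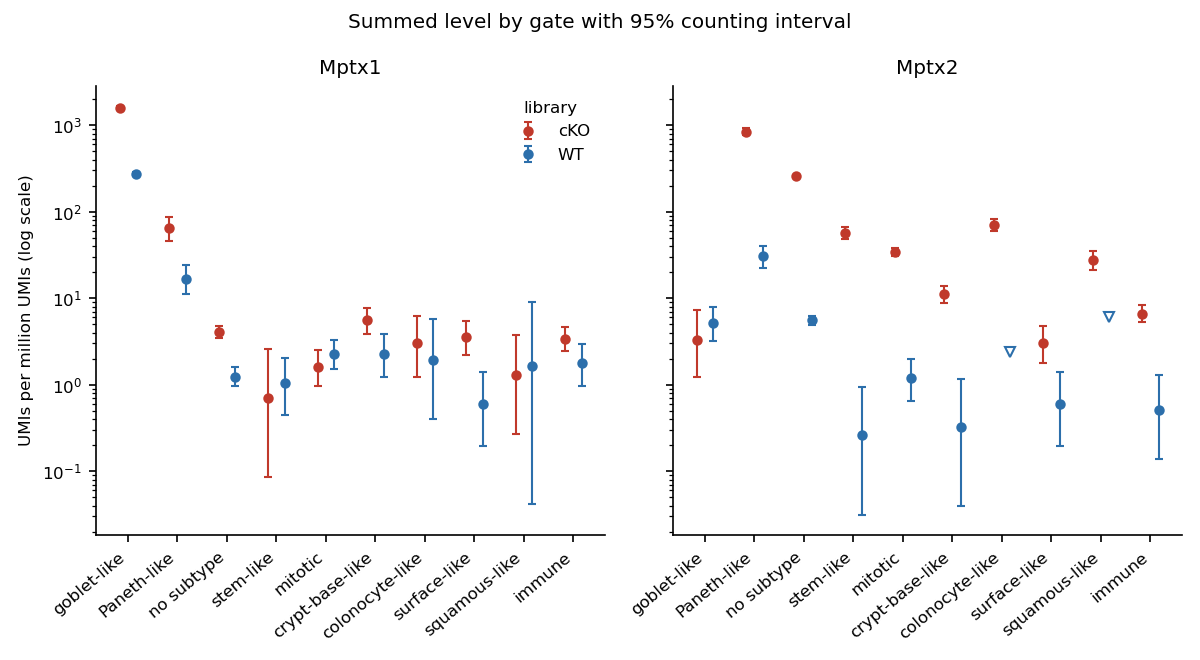
Summed level of each gene in UMIs per 1000000 UMIs (vertical axis, log scale) by gate, with 95% Poisson intervals; open triangles give the upper bound where no UMI was counted. Among the gates drawn, Mptx1 is highest in goblet-like cells (1591 CPM in cKO, 273 CPM in WT), and Mptx2 in Paneth-like cells (845 CPM in cKO, 30.6 CPM in WT), followed in cKO by cells without a subtype (256 CPM).

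Most Mptx2 came from cells that passed no subtype gate. These cells carried 9438 of the 10853 UMIs in cKO, or 87.0%, and 286 of 402 in WT, or 71.1%. Their level was 256 CPM in cKO, against 5.56 CPM in WT, a log2 ratio of 5.53 (5.36 to 5.70). They included 70 of the 90 high cells in cKO and 15 of the 20 in WT. These counts are to be read beside the size of the gate, 1301 of 2107 epithelial cells in cKO and 2285 of 3560 in WT. By share of high cells, the gate did not stand above the mitotic and Paneth-like gates in either library. Without the highest cell of each library, 184 CPM was left in cKO and 4.30 CPM in WT.

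Paneth-like cells had the highest summed level in cKO. They had 845 CPM in cKO (525 UMIs, 22 cells), against 30.6 CPM in WT (49 UMIs, 145 cells). That value rested on 1 cell in each library, with 453 and 47 UMIs. Without them it was 150 CPM in cKO, nearly all from 1 further cell, and 1.29 CPM in WT. Only 2 of 22 cKO and 1 of 145 WT Paneth-like cells were high, although defensin genes lead this gate. Median depth was 5149 UMIs in the cKO gate and 2991 UMIs in the WT gate.

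Some dividing and a few stem-like cells also carried Mptx2 in cKO. Mitotic cells had 34.3 CPM in cKO, with 12 of 185 cells high, against 1.19 CPM in WT, with 2 of 253 cells high. Stem-like cells had 56.9 CPM in cKO (160 UMIs, 91 of them in 1 cell and 60 in another), against 0.260 CPM in WT (2 UMIs). Crypt-base-like cells had 11.1 CPM in cKO, where 1 cell held 36 and another 25 of 74 UMIs, against 0.325 CPM in WT. Colonocyte-like cells had 70.9 CPM in cKO, where 1 cell held 156 of 163 UMIs, and none in WT. Squamous-like cells had 27.5 CPM in cKO, 59 of 64 UMIs in 1 cell, and none in 9 WT cells. Surface-like cells had 3.04 CPM in cKO and 0.605 CPM in WT, with no high cell in either library. Goblet-like cells, where Mptx1 peaks, had 3.32 CPM of Mptx2 in cKO (6 UMIs, each in its own cell), against 5.18 CPM in WT (21 UMIs, 19 of them in 1 cell). The 7 cKO tuft-like cells held none, and 1 of the 14 WT tuft-like cells held 23 UMIs, which put that gate at 45.0 CPM, above the WT Paneth-like gate.

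**Figure D3:**
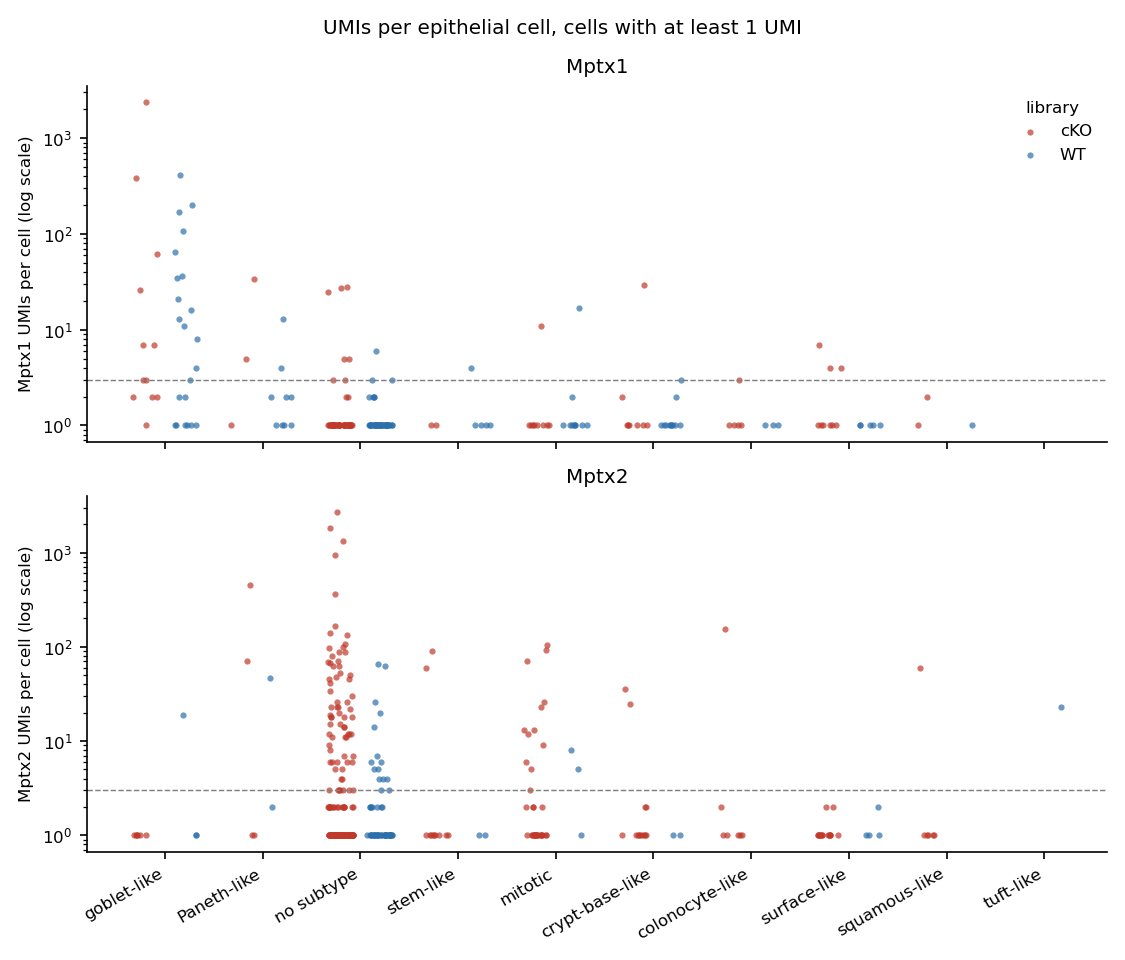
UMIs of each gene per epithelial cell (vertical axis, log scale) by gate, for cells with at least 1 UMI; each point is a cell, cKO left of WT, and the dashed line marks 3 UMIs. Mptx1 reaches 2377 UMIs in a cKO goblet-like cell, and Mptx2 reaches 2686 UMIs in a cKO cell without a subtype.

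Few cells held either gene at all, and few were high for both. In cKO, 82 of 90 Mptx2-high cells had no Mptx1 UMI and 15 of 23 Mptx1-high cells had no Mptx2 UMI. In WT this held for 20 of 20 Mptx2-high and 21 of 22 Mptx1-high cells. These shares are to be read beside those of all epithelial cells. Mptx1 was missing from 91.1% of Mptx2-high and 94.8% of all epithelial cells in cKO, and from 100% of Mptx2-high and 96.7% of all in WT. Mptx2 was missing from 65.2% of Mptx1-high and 86.8% of all epithelial cells in cKO, and from 95.5% of Mptx1-high and 97.8% of all in WT. Cells high for both numbered 6 in cKO and 0 in WT. In cKO that is 26.1% of the Mptx1-high cells, where 4.27% of all epithelial cells were Mptx2-high, so Mptx1-high cells were Mptx2-high at a greater share than epithelial cells as a whole. The Mptx1-high cells of cKO held a median of 72730 UMIs, against 25754 in all cKO epithelial cells, and the part of depth in this was not tested. The 6 include the cKO cells with the most Mptx2, which paired 2686 and 1822 Mptx2 UMIs with 27 and 28 Mptx1 UMIs. Given the sequence likeness of the transcripts, it was not tested whether those Mptx1 UMIs are reads of Mptx2 assigned to the wrong gene. Mptx1 made up 99.8% of the UMIs of both genes in cKO goblet-like cells and 98.1% in WT ones. It made up 1.56% in cKO cells without a subtype and 18.3% in WT ones, and 47.8% in the cKO and 75.0% in the WT shallow barcodes.

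**Figure D4:**
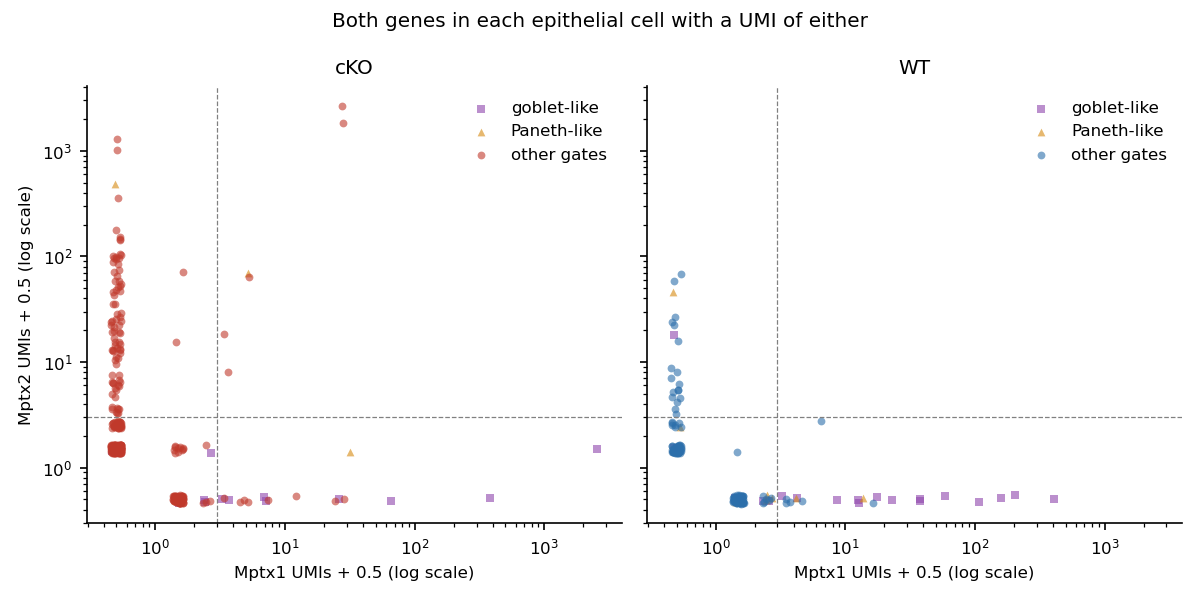
Mptx1 UMIs (horizontal axis) against Mptx2 UMIs (vertical axis) per epithelial cell with a UMI of either gene, both as UMIs plus 0.5 on log scales with slight jitter; dashed lines separate cells below 3 UMIs from those at or above it. Of the cKO cells, 6 are high for both genes, and none of the WT cells is.

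The Mptx2-high cells of cKO were unevenly spread over cells sorted by sex-linked transcripts. Each library held cells with transcripts of Xist and none of the Y-linked genes, and cells with Y-linked transcripts and no Xist, so mice of both sexes were pooled. In cKO, 0 of 351 Xist-positive epithelial cells were Mptx2-high, which allows a share of up to 0.855%. Among Y-positive cells 74 of 1134 were, or 6.53% (5.16% to 8.12%), and among cells with neither or both 16 of 622 were, or 2.57%. In WT the numbers were 4 of 1078 Xist-positive cells (0.371%), 9 of 1196 Y-positive cells (0.753%) and 7 of 1286 unassigned cells (0.544%). Median depths in cKO were 23804 UMIs in Xist-positive, 35318 in Y-positive and 3807 in unassigned cells. In WT they were 9657, 25723.5 and 6565 UMIs, and the part of depth in these shares was not tested. Xist-positive cells had 2.57 CPM of Mptx2 in cKO and 1.70 CPM in WT, a log2 ratio of 0.59 (-0.18 to 1.34). Y-positive cells had 166 CPM in cKO and 4.60 CPM in WT, a log2 ratio of 5.17 (4.95 to 5.41). Mptx1-high cells were 5 of 351 Xist-positive and 11 of 1134 Y-positive cells in cKO, against 1 of 1078 and 14 of 1196 in WT. How many mice and tumours each pool held is not stated in the labels, and sex, mouse and tumour of origin cannot be told apart.

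Clustering without either gene placed most Mptx2-high cells in 2 clusters. Cluster 2, led by Tgm4 and S100g, held 56 high cells of 298 in cKO, or 18.8% (14.5% to 23.7%), against 12 of 402 in WT, or 2.99% (1.55% to 5.16%). Cluster 5, led by Npy and Wdr49, held 24 of 225 in cKO, or 10.7% (6.95% to 15.5%), against 5 of 310 in WT, or 1.61% (0.526% to 3.72%). The Mptx2 level was 323 CPM in cKO and 14.1 CPM in WT in cluster 2, and 487 CPM in cKO and 4.83 CPM in WT in cluster 5. A single cell held 1822 of the 5077 cKO UMIs and 65 of the 240 WT UMIs of cluster 2. In cluster 5, 1 cell held 2686 of 4325 UMIs in cKO and 20 of 56 in WT. The order of these clusters by level is therefore not read. Median depths in cluster 2 were 49547.5 UMIs in cKO and 39375 UMIs in WT. Cluster 12, led by Ang4 and defensin genes, held the most Mptx1-high cells in each library, 8 of its 89 cells in cKO (8.99%) and 17 of its 207 in WT (8.21%). That is 33.3% of the Mptx1-high cells of the epithelial clusters in cKO and 77.3% in WT. Cluster 13, led by Hao2 and Sycn, held 6 Mptx1-high cells of 144 in cKO and 1 of 148 in WT.

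Mptx2-high cells were compared with epithelial cells without an Mptx2 UMI, in each library on its own. In cKO, 0 of 351 Xist-positive cells were high, so the high and zero cells also differed in sex-linked transcripts. The part of sex, mouse and tumour of origin in the differences below was not tested. Of 3374 genes with at least 50 CPM in the high cells of both libraries, 51 were at least 2-fold higher in both libraries and 49 at least 2-fold lower. Genes low in the high cells fall under that limit more easily, so the balance of higher and lower counts is not read. High cells were deeper, with medians of 60424 against 20704 UMIs in cKO and 50224 against 11548 UMIs in WT, so shares of positive cells after thinning to 3000 UMIs are given too. Values written as x against y give the Mptx2-high cells against the Mptx2-zero cells of the same library. Their median mitochondrial share was 5.53% against 6.06% in cKO and 3.95% against 5.29% in WT, and their median doublet score was 0.0634 against 0.0611 in cKO and 0.0738 against 0.0714 in WT.

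Fgf14, an intracellular regulator of sodium channels, ranked first. It had 113 CPM in Mptx2-high and 7.72 CPM in Mptx2-zero cells of cKO, and 113 against 3.41 CPM in WT. It was detected in 50 of 90 and 7 of 20 high cells; thinned shares were 20.0% against 1.52% in cKO and 18.5% against 0.880% in WT. Cadps, which primes dense-core vesicles for release, had 819 against 228 CPM in cKO and 1204 against 249 CPM in WT, and was detected in 85 of 90 and 18 of 20 high cells. Its thinned shares were 68.6% against 17.7% in cKO and 78.7% against 21.5% in WT. Onecut2, a transcription factor of the ONECUT family, had 263 against 99.8 CPM in cKO and 229 against 50.4 CPM in WT, and was detected in 89 of 90 and 20 of 20 high cells. It comes from the list of regional genes and was not among the first 12.

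The adhesion and scaffold genes Sdk1 and Magi2 were higher by log2 2.47 and 2.44 in cKO and by 3.63 and 2.79 in WT. Rdh9, a retinol dehydrogenase family gene, had 198 against 45.4 CPM in cKO and 241 against 58.3 CPM in WT, with 81 of 90 and 19 of 20 high cells positive. Adamts9 (a secreted metalloprotease), Galnt18 (a glycosyltransferase family gene), Dach2 (a transcription cofactor), Cdk14 (a kinase) and Tm4sf4 (a membrane protein) had log2 ratios between 1.92 and 2.15 in cKO and between 1.83 and 3.10 in WT. Npy and Defa17 also ranked among the first 12, but with most of their high-cell UMIs in 1 cell of each library. For Npy, 1 cell held 57.0% of the UMIs of the high cells in cKO and all of them in WT. It was detected in 24 of 90 high cells in cKO and 1 of 20 in WT. The Paneth defensin Defa17 drew 70.0% of its cKO and 99.7% of its WT UMIs from 1 high cell, and its log2 ratios were -0.51 in cKO and -1.06 in WT once Paneth-like and goblet-like cells were left out.

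Among genes with at least 50 CPM in the high cells of both libraries, the lowest in Mptx2-high cells were Dmbt1, Lypd8, Mgst3, Lgals4, Tspan8, Ly6a, Phgr1 and Ceacam1. Dmbt1, a secreted mucosal glycoprotein that binds bacteria, had 128 against 837 CPM in cKO and 69.1 against 588 CPM in WT. Lypd8, which keeps bacteria away from the colonic epithelium, had 693 against 3331 CPM in cKO and 234 against 3277 CPM in WT. Thinned detection of Lypd8 was 27.3% against 60.1% in cKO and 47.8% against 70.9% in WT. Ceacam1, an adhesion receptor, had 76.4 against 552 CPM in cKO and 127 against 453 CPM in WT. Lgals4 and Phgr1 are among the markers that called cells epithelial, and Ly6a among those of the surface-like gate. The limit left out lower genes, such as the carbonic anhydrase gene Car1, with log2 ratios of -2.89 in cKO and -4.24 in WT, and Retnlb, a goblet cell antimicrobial, with -4.83 in cKO and no UMI in the WT high cells.

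**Figure D5:**
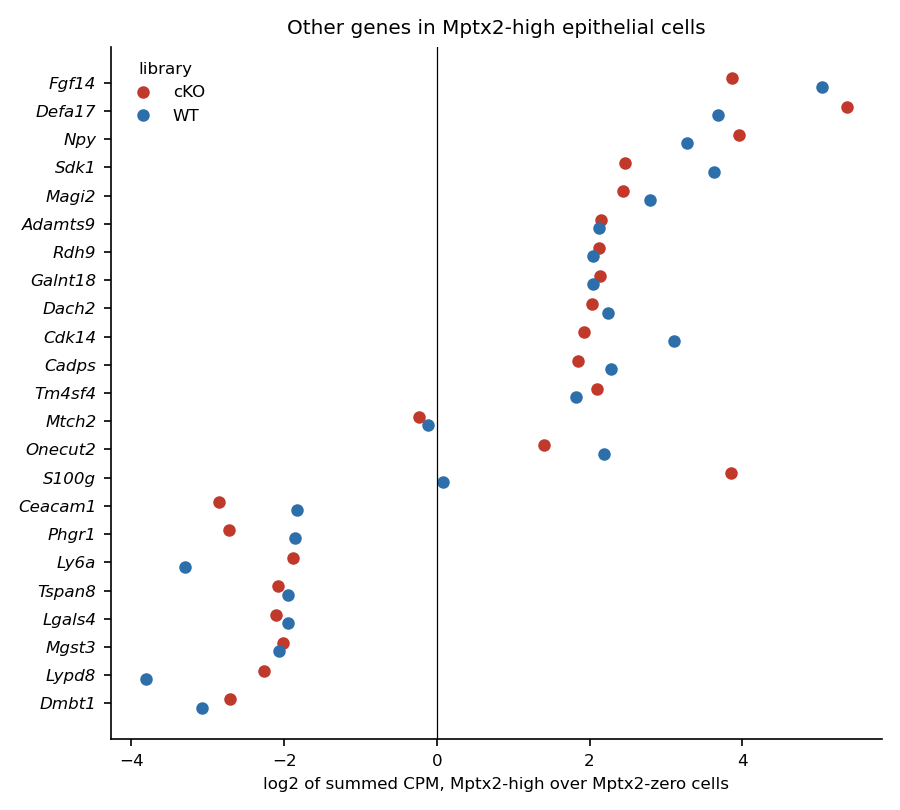
Log2 of the summed level in Mptx2-high over Mptx2-zero epithelial cells (horizontal axis) for the first 12 genes by rank, Mtch2, Onecut2 and S100g, and the 8 lowest genes, in cKO and WT. Fgf14 lies at 3.87 in cKO and 5.05 in WT, while S100g lies at 3.85 in cKO and 0.09 in WT.

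S100g, an intestinal calcium-binding protein, differed between the libraries in this comparison. It had 261 against 18.1 CPM in cKO, with 49 of 90 high cells positive, and 59.1 against 56.1 CPM in WT, with 8 of 20 positive. A single WT cell held 47 of the 65 S100g UMIs of the WT high cells, and a single cKO cell 508 of 1588. Without the highest cell of each library, the high cells had 179 CPM in cKO and 17.0 CPM in WT. Cells with at least 10 S100g UMIs numbered 45 of 2107 epithelial cells in cKO and 62 of 3560 in WT. Of these, 16 in cKO and 1 in WT were Mptx2-high. That is 35.6% of the S100g cells and 17.8% of the Mptx2-high cells in cKO, and 1.61% and 5.0% in WT. Of all epithelial cells, 4.27% in cKO and 0.562% in WT were Mptx2-high. Thinned shares of S100g were 18.8% against 2.79% in cKO and 8.91% against 4.79% in WT. Mtch2 itself was 21.4 CPM (17.8 to 25.4) in Mptx2-high and 25.2 CPM (23.9 to 26.6) in Mptx2-zero cells of cKO, and 86.3 CPM (69.8 to 106) against 93.8 CPM (91.8 to 95.8) in WT, with overlapping intervals in each library.

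As a sum, Mptx1-high cells were higher in goblet and Paneth genes. Of the 23 cKO and 22 WT high cells, 8 and 14 were goblet-like and 2 in each library Paneth-like. Of 3207 genes ranked in the same way, 83 were at least 2-fold higher in both libraries and 6 lower, a balance that the same limit of 50 CPM shapes. The Paneth genes Lyz1 and Defa24 had log2 ratios of 3.78 and 3.29 in cKO and 2.80 and 4.39 in WT. For each gene, 1 high cell held most of the high-cell UMIs, 76.4% and 75.5% in cKO and 68.6% and 75.1% in WT. Without Paneth-like and goblet-like cells, their log2 ratios were 0.004 and -1.25 in cKO and -1.27 and -0.93 in WT. Muc2, the gel-forming mucin of the gut, had 3265 CPM in Mptx1-high and 127 CPM in Mptx1-zero cells of cKO, and 3073 against 204 CPM in WT. Once Paneth-like and goblet-like cells were left out, its log2 ratio was 4.68 in cKO and -0.22 in WT. Klk1, a tissue kallikrein, had 435 against 19.3 CPM in cKO and 682 against 31.7 CPM in WT, with 17 of 23 and 18 of 22 high cells positive. Sval1 had 693 against 42.5 CPM in cKO and 1475 against 95.2 CPM in WT. Zg16, a lectin that binds bacterial walls, had 224 against 11.0 CPM in cKO and 623 against 26.4 CPM in WT, with 9 of 23 and 5 of 22 cells positive, and log2 ratios of 1.95 in cKO and -2.05 in WT without those gates. Slc12a8 had 131 against 7.33 CPM in cKO and 180 against 11.2 CPM in WT. Defa17, Ccn3 and Dlg2 completed the first 8, each with more than 50% of the UMIs of its high cells in 1 cell of each library. Onecut2, higher in Mptx2-high cells, was lower in Mptx1-high ones, at 57.8 against 121 CPM in cKO and 21.6 against 53.8 CPM in WT. The lowest genes above the limit were Timp3, Vim, Krt17, Id3, Gcnt2, Id2, Ifitm1 and Tnfrsf11b, with log2 ratios from -1.90 to -0.99 in cKO and from -2.15 to -0.96 in WT. Car1, under the limit, had -1.74 in cKO and -4.82 in WT.

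Likeness was also taken over sums of cells. Over 25 sums of a gate in a library with at least 50 cells, among 7682 genes, log2 CPM of Mptx1 ran most closely with Fcgbp (Pearson r = 0.899), Atoh1 (0.881), Clca1 (0.863), Tff3 (0.862), Rep15 (0.858), Muc2 (0.849), Spdef (0.837) and Zg16 (0.821). All of these but Rep15 are markers of the goblet-like gate, so the sums were in part built from them. Mptx2 had weaker partners, Ppp2cb (0.544), Onecut2 (0.539), Slc9a3 (0.486), Gas5 (0.482), Ltv1 (0.478), Dab1 (0.478), Gsta3 (0.476) and Cfi (0.473). Between Mptx1 and Mptx2 the coefficient was 0.042. The limit of 50 cells left out the cKO Paneth-like gate (22 cells), where the summed Mptx2 level was highest. The sums share libraries and differ in depth, and no p-value is given.

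None of the 7 other pentraxins listed reached 10 CPM in the epithelium of either library. Nptx1, a neuronal pentraxin, was the highest with 9.23 CPM in cKO (660 UMIs in 205 cells) and 5.95 CPM in WT (559 UMIs in 253 cells), the WT level being above that of Mptx2. Nptx2 had 1.45 CPM in cKO and 1.35 CPM in WT, and the receptor Nptxr 1.02 CPM in both libraries. Crp had 6 UMIs in cKO and 7 in WT, Ptx3 had 9 in cKO and 0 in WT, Ptx4 had 1 in cKO and 2 in WT, and Apcs had none.

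Other mucosal defence genes went in both directions. Of 22 listed, 21 were in the matrices and 16 were measured at 10 CPM; 1 was at least 2-fold higher in cKO, 4 were lower and 11 lay within 2-fold, with a median log2 ratio of 0.05, against -0.02 over all measured genes. Retnlb had 33.7 CPM in cKO and 6.69 CPM in WT. Ang4, a Paneth and goblet ribonuclease, had 37.8 CPM in cKO and 134.9 CPM in WT. The lectin gene Reg4 had 80.9 CPM in cKO and 226 CPM in WT, and Lyz1, the lysozyme of Paneth cells, 427 CPM in cKO and 1134 CPM in WT. Zg16 had 16.7 CPM in cKO and 38.0 CPM in WT. The goblet-like and Paneth-like gates held 59 and 22 cells in cKO, against 129 and 145 in WT, and the part of these cell numbers in the sums was not tested.

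Calcium handling genes were close between the libraries. Of 7 listed, 4 were measured and none passed 2-fold, with a median log2 ratio of -0.12. S100g had 39.1 CPM in cKO and 55.9 CPM in WT, and the calcium channel Trpv6 12.8 CPM in cKO and 10.9 CPM in WT. The plasma membrane pump Atp2b1 had 307 CPM in cKO and 347 CPM in WT, and the vitamin D receptor gene Vdr 22.1 CPM in cKO and 23.0 CPM in WT. Below 10 CPM were the exchanger Slc8a1 (8.22 CPM in cKO, 4.17 CPM in WT), the calcium-binding Calb1 (2 UMIs in cKO, 14 in WT) and Cyp24a1, which breaks down vitamin D (1 UMI in cKO, 2 in WT). Of 12 transcription factors and other genes that mark position along the gut, 10 were measured, and 1, Onecut2, passed 2-fold, with 119 CPM in cKO and 52.9 CPM in WT. Their median log2 ratio was 0.02. The hindgut factor Hoxb13 had 140 CPM in cKO and 121 CPM in WT. Gata4, a factor of the small intestine, had 34 UMIs in cKO and 13 in WT.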

How the data were processed

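The deposited values of these droplet single-cell libraries are raw UMI counts for each gene and barcode, and the file headers give Cell Ranger 7.2.0 as their source. In the submitters' processing notes, mm10 and Seurat 3.0 are listed as well. What the authors filtered out of the matrices is not stated there. Barcodes with fewer than 1000 UMIs, fewer than 500 genes or more than 25% mitochondrial UMIs were left out, as were the highest Scrublet doublet scores (scanpy 1.11.5), at 0.8% of barcodes per 1000 barcodes. Cells were epithelial at 40 or more epithelial marker UMIs per 10000, with non-epithelial classes below a mean z-score of 1. A squamous mean z-score past a higher limit, with 3 detected squamous markers, could stand in for the epithelial marker sum. Subtypes needed a mean z-score of 1 and 3 detected markers. The scoring rule was set on these data. The members and lists were chosen with earlier results of these data known. Leiden clustering (leidenalg 0.10.2, resolution 1) left out both members and gave 28 clusters, 13 of them epithelial.

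Levels are summed counts per 1000000 UMIs. Intervals are exact at 95%: Poisson for levels, Clopper-Pearson for shares, conditional binomial for ratios. The limit for a count of 0 is 3 counts. Thinned shares are expectations at 3000 UMIs, with shallower cells left out. Ratios across genes add 0.5 counts, and that calculation was tested on simulated data. Named genes follow a fixed rule: the 8 most alike by Pearson r per member, and the first 12 (Mptx2) or 8 (Mptx1) genes by the smaller log2 ratio of the libraries. Added to these were listed pentraxin and calcium genes, and other listed genes past 2-fold. The 8 lowest genes, genes leading clusters, Car1, Hoxb13 and Gata4 were named after their values were seen. Positions are from GENCODE M21; alignments were made with Biopython 1.88. Alternatives covered depth, scaling, gates, doublets, sex and the highest cells.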

Additional observations from a re-analysis of the deposited data

How the results depend on the processing

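There was 1 library per genotype, so nothing here measures variation between mice. No paired analysis was possible because each genotype has a single library. Settings that leave out 1 cell, the Paneth-like and goblet-like cells or the cells under 10000 UMIs, and the one over all barcodes, were chosen after seeing the data. The log2 ratio of Mptx1 (1.72) reversed to -0.95 with the mean of per-cell CPM (16.7 CPM in cKO, 32.4 CPM in WT), where 1 WT cell of 1434 UMIs weighs heavily, and was 0.57 without that cell. It reversed to -0.31 without the highest cKO cell, and was 2.29 without the highest WT cell, 0.27 without the highest cell of each library and 0.16 without the 10 highest. It was 1.86 in cells of at least 3000 UMIs, 2.51 with equal weights of the gates, 1.5 in Xist-positive cells, 1.40 in Y-positive cells, 1.32 without Paneth-like and goblet-like cells and 1.55 over all deposited barcodes.

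The log2 ratio of Mptx2 (5.15) kept its direction in all settings run, with 4.26 for the mean of per-cell CPM, 4.41 for the same without the WT cell of highest CPM, 4.74 without the highest cKO cell, 5.4 without the highest WT cell, 4.99 without the highest cell of each library or the 10 highest, 5.31 without Paneth-like and goblet-like cells and 4.88 over all barcodes. It was 0.59 in Xist-positive cells, the lowest value. Scaling by the median of ratios moved both ratios by less than their counting intervals.

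The share of cells with a UMI depends on the limit and depth. Mptx2 was in 13.2% of cKO and 2.16% of WT epithelial cells, and at 3 UMIs in 4.27% and 0.562%, at a depth of 3000 UMIs in 4.92% and 0.903%, and at 3 UMIs in cells of at least 10000 UMIs in 6.82% and 1.07%. For Mptx1 (5.17% and 3.29%) these were 1.09% and 0.618%, 1.46% and 1.04%, and 1.69% and 1.02%. A stricter gate (z-score 1.5) gave goblet-like Mptx1 levels of 1737 CPM in cKO and 303 CPM in WT. Mptx2 was then 190 CPM in cKO and 4.45 CPM in WT in cells without a subtype, and 942 CPM in cKO Paneth-like cells. With minimums of 50 and 1 CPM, 9 and 249 genes were 2-fold higher in cKO and 9 and 121 lower. Subtracting the UMIs per shallow barcode from the UMIs per cell, also chosen after seeing the data, gave log2 ratios of 1.77 for Mptx1 and 5.23 for Mptx2. Subtracting the shallow barcodes' level in CPM gave no ratio, since Mptx1 then fell below 0 in both libraries (-31.8 CPM in cKO, -18.4 CPM in WT) and Mptx2 did in WT (68.9 CPM in cKO, -6.31 CPM in WT).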
